A study of Mus musculus with 8 samples.

Results

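The cells described here are those that the deposited annotation names aEC, arterial endothelial cells of the aorta-gonad-mesonephros (AGM) region, the part of the mouse embryo in which the first blood stem cells bud from the dorsal aorta. Members were all cells with that name, 1512 of 15168 cells in 10 named clusters. The study compared cells sorted for CD31, a surface protein of endothelium and early blood, from embryos labelled WT (strain C57BL/6) and Meis1_cKO (strain Meis1-flox/VE-Cre, genotype Meis1-knockout), all at embryonic day 10.5. There were 5 WT libraries, called WT 1 to WT 5, and 3 Meis1_cKO libraries, each made from a pool of 2 to 5 embryos, and 888 of the aEC cells were WT. The names of the 2114 cells of WT 5, and of no other library, begin in the deposited table with Mf, letters with which the study also writes its floxed Meis1 embryos, and it calls floxed littermates without Cre WT in other assays. The labels give C57BL/6 for all WT libraries, and whether WT 5 carried the floxed allele could not be settled from the sources used here. Since a library is a pool, spreads and p-values measure differences between pools. VE-Cre acts in endothelium and is inherited by the blood cells that come from it, so the loss of Meis1, a homeobox transcription factor, was not restricted to aEC. The assay was CITE-seq, in which each cell gives both its RNA, counted as unique molecular identifiers (UMIs), and the amounts of a few surface proteins, counted as tags on antibodies.

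Arterial endothelium separates from venous endothelium early in development under VEGF and Notch signalling. Dll4 is the Notch ligand of arteries, Hey1 and Hey2 are targets of the pathway, Sox17 and its relatives act beside it, and the nuclear receptor Nr2f2 maintains venous identity. In the dorsal aorta, some arterial cells go on to become hemogenic endothelium, which releases blood cells by an endothelial-to-hematopoietic transition (EHT). In the annotation, preHE are endothelial cells placed just before the hemogenic state, EHT are cells in the transition, and vEC_1 to vEC_4 are the venous-named endothelial clusters, whose sum is called vEC here.

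The WT libraries held 150, 153, 51, 319 and 215 aEC cells and the Meis1_cKO libraries 162, 306 and 156. Whole libraries held 20484881 to 79429129 UMIs, and aEC sums held 1093705 to 6754878. The median aEC cell had 20189 to 21911 UMIs in WT 1 to WT 4, 9705 in WT 5 and 7034.5 to 10206.5 in Meis1_cKO, so that WT 5 lay with Meis1_cKO in depth, and it also shared their tag panel. In every library the median aEC cell held fewer UMIs than the median vEC cell, 0.716 to 0.828 times as many. Libraries shared 33 barcodes, which touched 9 aEC cells, and 1 aEC cell was called a doublet. Meis1 itself was barely read in aEC, at 1.26, 0.881, 0.914, 1.48 and 1.35 CPM in WT and 2.04, 2.15 and 1.17 CPM in Meis1_cKO, from 21 and 10 UMIs. Such counts cannot check the genotype, since 3′ tags do not read the deletion; a row named CreERT2 held 34 UMIs, all in Meis1_cKO libraries and 2 of them in aEC.

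Of the 5 markers given for aEC, Sox9 and Dll4 were higher in aEC than in any vEC cluster, Kcne3 was somewhat higher, and Cdh5 and Gpr183 were not. Levels are in CPM, the UMIs of a gene scaled to a total of 1000000 over all aEC cells of a library. The clusters were drawn from the same RNA counts, so levels between clusters are a description and carry no test. Sox9, a transcription factor, stood at 37.8, 15.6, 43.9, 84.4 and 21.1 CPM in aEC of WT 1 to WT 5. Its mean was 4.09 CPM or less in every other cluster and 0.158 CPM in preHE, although the aEC values themselves spread widely. Dll4 stood at 59.2, 44.3, 48.5, 53.3 and 27 CPM in aEC, against means of 15.4 CPM in vEC_1 and 1.61 CPM in vEC_3. PreHE held more Dll4 than aEC, at 136 CPM.

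Kcne3, a potassium channel subunit, was at 64, 62.8, 85, 146 and 71.4 CPM in WT aEC. WT 4 stood above the other libraries, and vEC_1, at 63.7 CPM, was close to most of them, while preHE held 0.316 CPM. Cdh5 encodes VE-cadherin, the adhesion protein of all endothelium. It was at 350.0 ± 20.3 CPM (SD, n = 5) in aEC, within the 333 to 427 CPM of the vEC means, and at 1075 CPM in preHE. Gpr183, a receptor for oxysterols, was at 71.8 ± 23.7 CPM (SD, n = 5) in aEC, 86.8 CPM in vEC_1, 90.7 CPM in vEC_2 and 94.9 CPM in Myeloid cells.

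**Figure D1:**
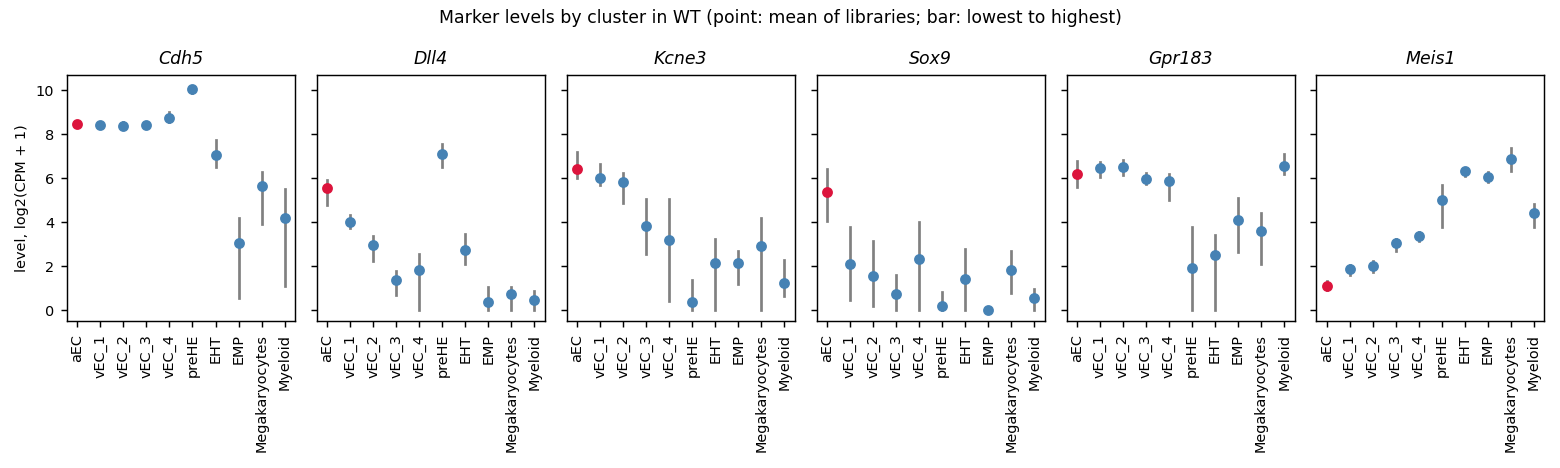
Levels of the 5 aEC markers and of Meis1 in the 10 clusters of WT, as log2(CPM + 1) on the vertical axis. Points are means of the libraries and bars run from the lowest to the highest library; among cluster means aEC, in red, stood highest for Kcne3 and Sox9, below preHE for Cdh5 and Dll4, below vEC_1 and vEC_2 for Gpr183, and lowest for Meis1.

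In single cells the markers were sparse. After each cell was thinned to 5000 UMIs, which left out 2 of 888 WT aEC cells, an aEC cell held a UMI of 1.55 ± 0.26 (SD, n = 5) of the 5 markers on average, and 2.54 of them without thinning. Cdh5 was seen in 81.3% of aEC cells, Gpr183 in 25.3%, Kcne3 in 19.3%, Dll4 in 17.6% and Sox9 in 11.5%, as means of the WT libraries. In Myeloid cells at the same depth, Sox9 was seen in 0.169%, Dll4 in 0.27%, Kcne3 in 0.369% and Cdh5 in 4.8%, which gives the level of background for these genes. Gpr183 was seen in 34.8% of Myeloid cells, more often than in aEC. In vEC_1 the shares were 79.6% for Cdh5, 33.2% for Gpr183, 17.7% for Kcne3, 7.51% for Dll4 and 1.46% for Sox9. Median UMIs per cell before thinning were 18343 in WT aEC and 39173 in WT Myeloid cells.

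Among the other clusters, vEC_1 was nearest to aEC. Of 7397 genes with a mean of at least 10 CPM over both clusters, a minimum used for the counts of this paragraph, 61 were at least 2-fold higher in aEC than in vEC_1 in all 5 WT libraries (0.825%) and 4 were at least 2-fold lower (0.0541%). The counts were 152 (2.04%) and 90 (1.21%) against vEC_2, 237 (3.14%) and 161 (2.13%) against vEC_3, and 196 (2.57%) and 153 (2.0%) against vEC_4. Against preHE the balance turned, with 113 genes at least 2-fold higher in aEC (1.44%) and 313 at least 2-fold lower (3.99%). Against EHT the counts were 674 (8.74%) and 466 (6.04%), and against Myeloid cells 959 (12.4%) and 698 (9.03%).

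Of 5485 genes with at least 20 CPM in WT aEC, 19 (0.346%) were at least 2-fold above every other cluster in all 5 WT libraries. In order of that ratio they were Htra3, Spock2, Apod, Cdkn1a, Ccdc141, Tnfrsf11b, Stra6, Adm, Car4, Foxq1, Prdm1, Foxf2, Tmem252, Vwa1, Slc7a5, Nkd1, Ramp3, Rgcc and Cdh2, and none of the 5 given markers was among them. In the Meis1_cKO libraries 20 genes met the same rule, 15 of them shared. Spock2, Cdkn1a, Ccdc141 and Rgcc did not meet it there. Their ratios of mean aEC level to the highest other cluster were 11.5, 6.67, 6.16 and 2.44 in WT. In Meis1_cKO these ratios were 2.53, 2.25, 4.11 and 1.74. In WT the highest other cluster was vEC_1 for 17 of the 19, and 17 fell in level from aEC through vEC_1 and vEC_2 to vEC_3. Just inside the rule were Rgcc and Adm, with a smallest log2 difference of 1.05 each, and just outside it were Spsb1 at 0.85 and Ppp1r2 at 0.84. The rule left out the Megakaryocytes of WT 3, which had 5 cells against a minimum of 10.

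Htra3, a secreted serine protease, stood at 83.5, 69, 57.6, 60.1 and 50.8 CPM in aEC of WT 1 to WT 5 and at 63.8, 54.7 and 56.6 CPM in Meis1_cKO. No other cluster had a WT mean above 4.23 CPM, and the genotypes overlapped. Spock2, a matrix proteoglycan, was at 44.1, 27.6, 36.6, 36.3 and 17.52 CPM in WT aEC and 1.9 CPM in vEC_1. Cdkn1a, the cyclin-dependent kinase inhibitor p21, was at 197, 181, 233, 251 and 132 CPM in WT aEC, 160.3, 118 and 197 CPM in Meis1_cKO aEC and 28.9 CPM in WT vEC_1. At equal depth 45.9% of aEC cells had a UMI of it, as did 10.3% of vEC_1 and 2.92% of preHE cells.

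Cdkn1a is a target of p53. Of 15 p53 targets, a list added after values were seen, 5 were higher in aEC than in vEC in all 5 WT libraries, Cdkn1a among them, and 3 were lower. Here and for the lists that follow, all listed genes in the table are counted with no minimum level, since a gene that passes a minimum only through the cluster where it is high has to differ. Of all 28014 genes, many of them near 0, 9.47% were higher in aEC than in vEC in all 5 libraries and 14.1% lower, and of the 7493 genes of at least 10 CPM 24.8% were higher and 34.5% lower. Mdm2, which degrades p53, was at 21.7 CPM in aEC and 19.4 CPM in vEC_1, and Ccng1, a cyclin-like target, at 16.8 and 19 CPM.

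**Figure D2:**
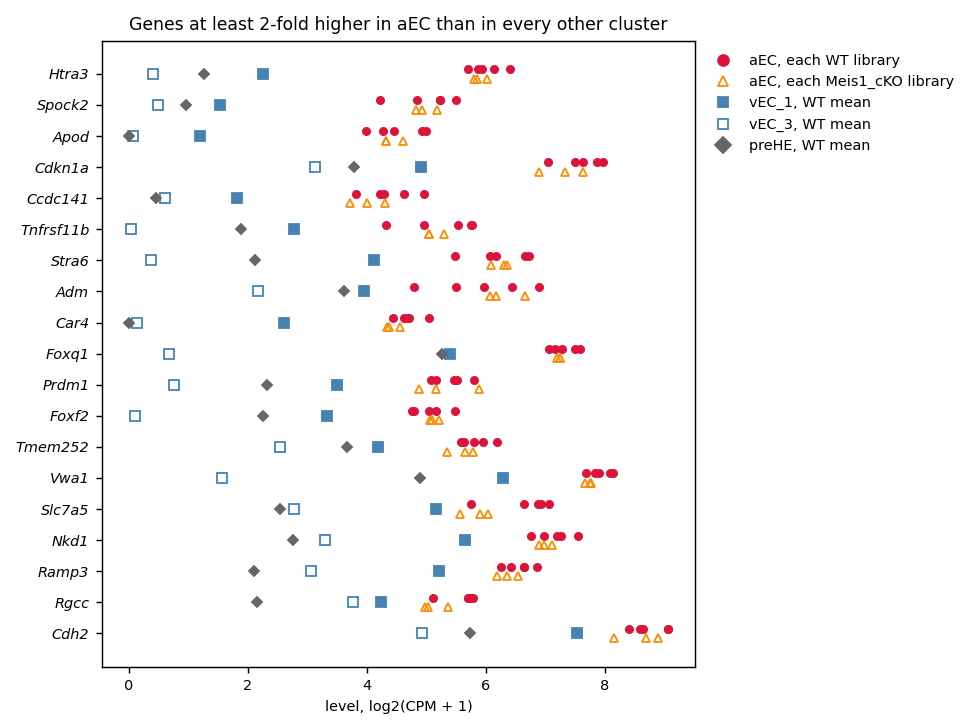
Levels of the 19 genes that were at least 2-fold above every other cluster in all WT libraries, as log2(CPM + 1) on the horizontal axis, with 1 gene per row. Red circles are aEC of the 5 WT libraries and orange triangles are aEC of the 3 Meis1_cKO libraries. The remaining symbols are WT means of vEC_1, vEC_3 and preHE. WT and Meis1_cKO aEC overlapped in each row, and vEC_1 lay between aEC and vEC_3. For Rgcc, Slc7a5 and Vwa1 the overlap rested on WT 5, and WT 1 to WT 4 lay above every Meis1_cKO library.

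Several of these genes are known from vessels of the developing brain, where they serve the blood-brain barrier or transport across it. Foxq1 and Foxf2, forkhead transcription factors, were at 159 ± 24.6 CPM (SD, n = 5) and 32.6 ± 7.09 CPM (SD, n = 5) in aEC, against 40.9 and 9.07 CPM in vEC_1. Slc7a5, an importer of large neutral amino acids, was at 116, 121, 98.7, 133 and 53 CPM in WT aEC and 34.6 CPM in vEC_1. Stra6, the retinol uptake receptor, was at 105, 99.5, 71.3, 66.5 and 43.6 CPM and 16.3 CPM.

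Of 24 such barrier and transport genes, a list likewise chosen after values were seen, 23 were in the table. Of these, 19 were higher in aEC than in vEC in all 5 WT libraries and none was lower. Slc2a1, the glucose transporter GLUT1, stood at 661, 677, 439.8, 613 and 468 CPM in WT aEC, and its mean fell from 285 CPM in vEC_1 to 75.8 CPM in vEC_3. Tfrc, the transferrin receptor, was at 111 ± 35.3 CPM (SD, n = 5) against 29.2 CPM in vEC_1, and Mfsd2a, a lipid transporter of the barrier, at 14.1 ± 4.65 CPM (SD, n = 5) against 0.779 CPM. Cldn5, the tight junction protein of endothelium, was abundant in both, at 995 and 766 CPM. Ocln, a tight junction gene of tight barriers, had 13 UMIs in all WT aEC, or 0.602 CPM. Slc2a1 and Cldn5 were also high in preHE, at 316 and 965 CPM, whereas Tfrc was at 11.9 CPM there.

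Targets of Wnt signalling, which acts in brain vessels, were mostly higher in aEC as well. Of 10 listed, 7 were higher in aEC than in vEC in every WT library and none was lower. Nkd1, a feedback inhibitor of the pathway, stood at 146, 153, 187, 125 and 107 CPM in WT aEC, 49.1 CPM in vEC_1 and 5.78 CPM in preHE. Lef1, a transcription factor that carries the signal, was at 121 ± 15.8 CPM (SD, n = 5) in aEC, 75.1 CPM in vEC_1 and 5.1 CPM in preHE. Axin2, another feedback inhibitor, was at 14.6 CPM in aEC and 10.6 CPM in vEC_1, and Notum, Sp5 and Rnf43 were each below 1 CPM in aEC. The summed level of the list in aEC was 2.58 to 3.27 times that in vEC of the same library in WT and 2.79 to 2.88 times in Meis1_cKO. That sum includes Sox17, which stood above Nkd1 and Lef1 in WT aEC and is also in the mature arterial list below. The sums of these lists are therefore not independent.

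The TCF/LEF factors of the Wnt pathway and RBPJ, the DNA-binding factor of Notch signalling, recognise short motifs, and the promoters of the 19 genes were searched for the core letters. RefSeq promoters (build GRCm38.p6) matched 14 of the 19, and the 250 bases before each gene start were read on both strands. CTTTGA, for TCF/LEF, lay in 3 of the 14 and in 14.0% of all 27025 promoters. TGGGAA, for RBPJ, lay in 3 of the 14 and in 21.5% of all promoters. ACAATG, for SOX factors, lay in 1 (11% of all) and CCGGAA, for ETS factors, in 2 (12.2% of all). These are descriptions of letters in a window and not binding sites. The TCF/LEF and RBPJ matches are shown to give the reader the sites beside the genes, in the direction of transcription, with the motif or its reverse complement in capitals.
Spock2, TCF/LEF core, chr10:60106112-60106141, plus strand: tccagcgctctgCTTTGAaatctaccccct
Ccdc141, TCF/LEF core, chr2:77170820-77170849, minus strand: taggcaaagagcTCAAAGctgtccctcgag
Tmem252, TCF/LEF core, chr19:24673944-24673973, plus strand: tcatttaattgtTCAAAGgccatttgttcc
Adm, RBPJ core, chr7:110627413-110627442, plus strand: tgaactctatgcTGGGAAattagggcaagg
Prdm1, RBPJ core, chr10:44458920-44458949, minus strand: gaagtaagaagaTTCCCAgtccttgttgaa
Car4, RBPJ core, chr11:84957504-84957525, plus strand: agtcTGGGAAgataccccgtgg

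Arterial genes were mostly higher in aEC than in vEC and lower than in preHE. Of the 9 arterial genes the study used, 6 were higher in aEC than in vEC in all 5 WT libraries and none was lower. The study classed its endothelial clusters as arterial or venous by scores of these and of venous genes. Their direction against vEC therefore follows in part from the cluster names and is no separate finding. All 9 were lower in aEC than in preHE in every WT library. Against preHE 6.89% of all 28014 genes were lower and 6.06% higher, and of the 7851 genes of at least 10 CPM 21.4% were lower and 15.1% higher. Jag1, a Notch ligand, was at 50.3 ± 10.6 CPM (SD, n = 5) in aEC, 20.6 CPM in vEC_1 and 134 CPM in preHE. Efnb2, the ephrin of arteries, was at 53.3 ± 9.58 CPM (SD, n = 5), 35.4 and 317 CPM in the same order. Nrp1, a VEGF co-receptor, was at 243 ± 26.3 CPM (SD, n = 5), 163 and 949 CPM. Of the receptors, Notch4 was at 34.9 ± 6.32 CPM (SD, n = 5) in aEC and 17.2 CPM in vEC_1, and Notch1 at 69.8 ± 10.4 CPM (SD, n = 5) and 57.4 CPM.

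Among Notch targets, Hey1 stood at 65.2, 67.8, 67.7, 81.7 and 55.3 CPM in WT aEC, 11.6 CPM in vEC_1 and 245 CPM in preHE. Hes1, a further target, was at 230.3, 120.1, 296, 214 and 183 CPM in aEC and 151 CPM in preHE, and so was not below preHE on average. Of 17 genes of the pathway, 10 were higher in aEC than in vEC in all 5 WT libraries and 2 were lower. Sox17 was at 217 ± 31.6 CPM (SD, n = 5) in aEC, 120.2 CPM in vEC_1 and 482 CPM in preHE.

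Genes of mature arteries separated aEC from preHE further. Gja4, the gap junction protein connexin 37, stood at 122, 261, 94.2, 221 and 88.5 CPM in WT aEC, 17.8 CPM in vEC_1 and 1475 CPM in preHE. Gja5, connexin 40, was at 0.315, 3.52, 0, 4.29 and 2.7 CPM in aEC and 500.5 CPM in preHE, and at equal depth it was seen in 0.636% of aEC and 84.5% of preHE cells. Bmx, a kinase of arterial endothelium, had 3 UMIs in all WT aEC and stood at 121 CPM in preHE. Hey2 was at 4.59 ± 2.08 CPM (SD, n = 5) in aEC and 106 CPM in preHE. Tm4sf1, an endothelial membrane protein, was at 6.33 CPM in aEC, 9.84 CPM in vEC_1 and 729 CPM in preHE. Cxcr4, the chemokine receptor, was an exception on the vEC side, at 19.5, 10.6, 27.4, 19.99 and 10.3 CPM in WT aEC and below 1 CPM in each vEC cluster.

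Of the 18 genes in the mature arterial list, 10 were higher in aEC than in vEC in all 5 WT libraries and 1 was lower. Against preHE 14 were lower in aEC in all 5 libraries and none was higher. Relative to vEC, more of the listed arterial genes were thus higher than lower in aEC, while Gja5 and Bmx, which define mature arteries, were near 0. PreHE sums also held markers of smooth muscle and mesenchyme, 159 to 796 CPM in total in WT against 6.4 to 18.2 CPM in aEC, and their part in these differences was not tested.

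Venous genes were lower in aEC than in vEC but were read in them. Nr2f2 stood at 42.8, 36.7, 32, 30.3 and 45.8 CPM in WT aEC, against means of 90.9, 119, 215 and 286 CPM in vEC_1 to vEC_4. The aEC values lay close together and below all of those means, and above the 10.98 CPM of preHE. Nrp2, a co-receptor of veins and lymphatics, was at 79.8 ± 13.9 CPM (SD, n = 5) in aEC and 122 to 367 CPM in the vEC means, and Ephb4, the venous ephrin receptor, at 29.2 ± 3.24 CPM (SD, n = 5) and 35.9 to 76.9 CPM. All 3 were lower in aEC than in vEC in all 5 WT libraries. They are the venous genes by which the study classed the clusters, so this direction follows in part from the names. A further 11 venous and lymphatic genes were each lower as well. Aplnr, the apelin receptor, was close to the vEC clusters, at 251, 254, 178, 133 and 192 CPM in WT aEC and 244 CPM in vEC_1, and at 12.1 CPM in preHE.

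**Figure D3:**
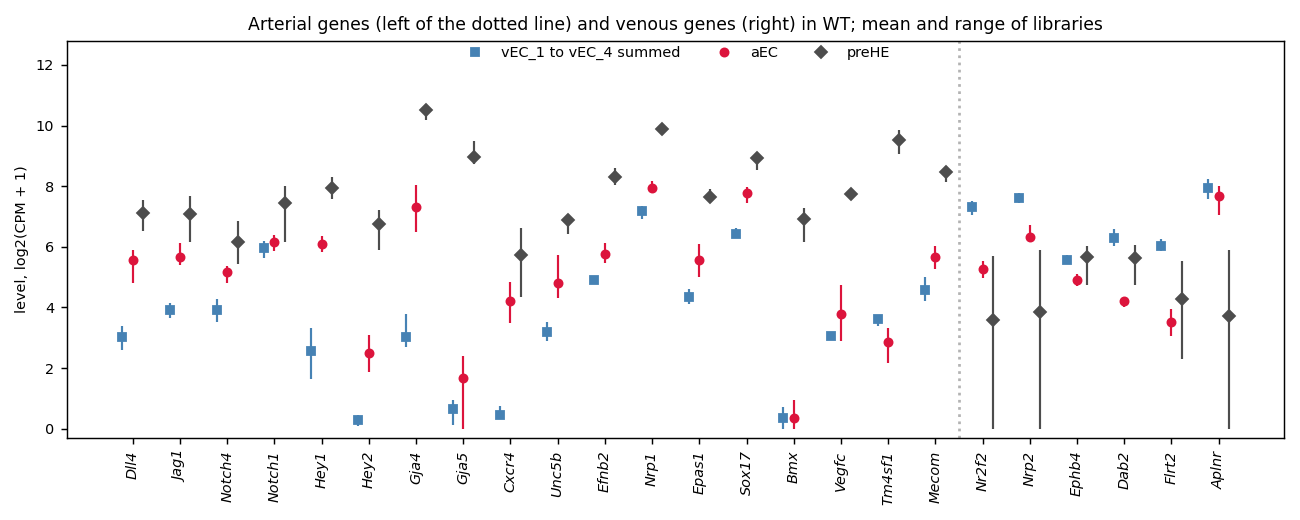
Levels of 18 arterial genes, left of the dotted line, and 6 venous genes, right of it, in WT as log2(CPM + 1). Symbols are means of the libraries and bars run from the lowest to the highest library, for the vEC clusters summed, aEC and preHE; aEC lay between vEC and preHE for most arterial genes, near vEC for Gja5, Bmx and Tm4sf1, and below vEC for the venous genes.

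Genes of tip cells, the leading cells of vessel sprouts, were mostly higher in aEC than in vEC. Of 19 listed, 17 were higher in all 5 WT libraries and 1 was lower. Esm1, a secreted proteoglycan of tip cells, stood at 107, 55.8, 66.7, 108 and 62 CPM in WT aEC, 11.5 CPM in vEC_1 and 21.5 CPM in preHE. Adm, the vasodilator peptide adrenomedullin, was at 44.1, 26.7, 61.3, 117 and 85.4 CPM in WT aEC and 14.4 CPM in vEC_1. Ramp3, a subunit of its receptor, was at 94.6 ± 15 CPM (SD, n = 5) and 35.8 CPM. Apln, the ligand of Aplnr, was at 50.9 ± 8.98 CPM (SD, n = 5) in aEC, 23 CPM in vEC_1 and 0.633 CPM in preHE. Angpt2, an angiopoietin that tip cells release, was low, at 10.1 CPM.

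Of 13 basement membrane genes, 10 were higher in aEC than in vEC in every WT library and none was lower. Nid1 and Nid2, which link the basement membrane, were at 213 ± 27.2 CPM (SD, n = 5) and 93.6 ± 24.5 CPM (SD, n = 5) in aEC and at 118 and 45.5 CPM in vEC_1. Cdh2, N-cadherin, stood at 534, 383, 530.3, 396 and 339 CPM in WT aEC and 185 CPM in vEC_1.

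Among genes of at least 50 CPM, the mean log2 difference from vEC was largest for Igfbp7, a secreted binding protein of growth factors, at 5.45 ± 0.34 (SD, n = 5). It stood at 258, 225, 225, 229.8 and 88.5 CPM in WT aEC, 127, 104 and 121 CPM in Meis1_cKO aEC and 9.57 CPM in WT vEC_1, and WT 5 lay below the Meis1_cKO libraries. On the other side, Flrt2, a membrane protein of cell guidance, and Hoxa5, a homeobox gene of body position, differed by -2.56 ± 0.25 and -2.41 ± 0.45 (SD, n = 5).

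Genes of the cell cycle were lower in aEC than in vEC. Of 20 G2/M genes, 19 were lower in all 5 WT libraries, and of 17 S phase genes 15 were. Mki67, the proliferation marker Ki-67, was at 60.2, 62.8, 52.1, 51.8 and 82.2 CPM in WT aEC, 107, 52.1 and 78.8 CPM in Meis1_cKO aEC, and 131, 218, 241 and 92.3 CPM in WT vEC_1 to vEC_4. At equal depth 18.8% of aEC cells had a UMI of it, as did 37.7% of vEC_1, 22.5% of vEC_4 and 18.3% of preHE cells. Ccnd2, cyclin D2, was at 31.5, 42.3, 19.2, 50.5 and 29.6 CPM in WT aEC. It was below every other cluster in all 5 libraries, with the Megakaryocytes of WT 3, too few to sum, left out. The next lowest, vEC_1, had a mean of 82.7 CPM. Glycolysis genes showed no single direction against vEC, with 8 of 15 higher and 4 lower in all 5 libraries, and 11 of 15 were higher than in preHE.

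**Figure D4:**
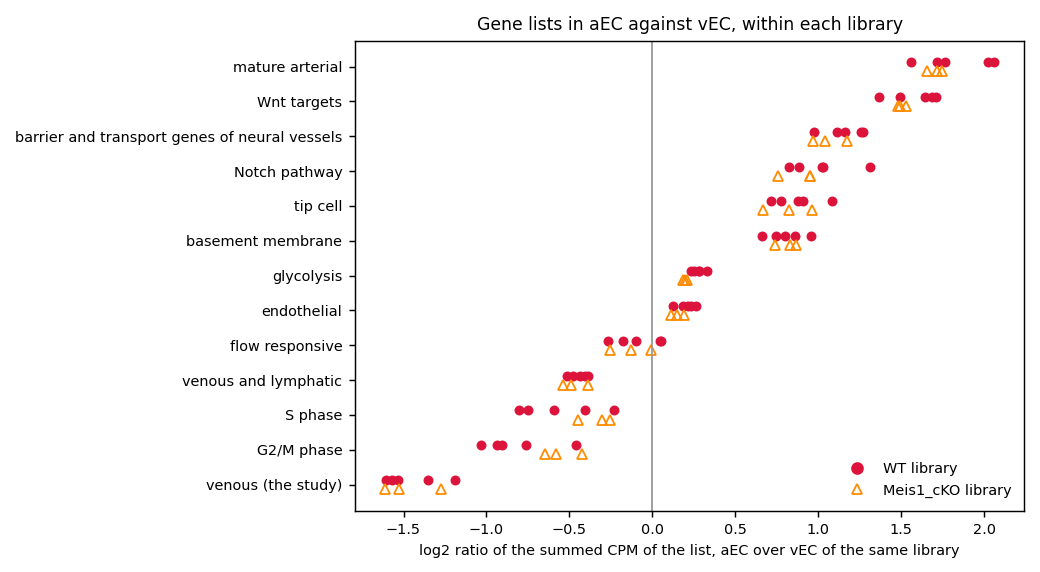
Log2 ratio of the summed CPM of each gene list in aEC over that in vEC of the same library, with red circles for WT and orange triangles for Meis1_cKO libraries. Mature arterial, Wnt and barrier lists lay above 0 in all 8 libraries and venous and cell cycle lists below 0; the barrier list was chosen after values were seen, and WT 5 lay with Meis1_cKO for the G2/M list. Several lists share genes, so the rows are not independent. Among others, the mature arterial list shares Sox17 with the Wnt list and Hey1, Hey2 and Jag2 with the Notch list. It shares Cxcr4, Unc5b and Igfbp3 with the tip cell list, which shares Nid2 and Lamb1 with the basement membrane list.

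Several genes of hemogenic cells and of blood stem cells were low in aEC, but not all. Runx1, the transcription factor that starts the transition to blood, had 18 UMIs in all WT aEC, or 1.11 ± 0.447 CPM (SD, n = 5), against 1.1 CPM in vEC and 191 CPM in EHT. Cd44, an adhesion receptor, was at 1.14 CPM in aEC and 49.7 CPM in preHE. Mecom, a stem cell transcription factor, was at 49.7 ± 11.003 CPM (SD, n = 5) in aEC and 352 CPM in preHE, and Hoxa9, a homeobox gene of blood stem cells, at 5.97 ± 1.46 CPM (SD, n = 5) and 33.4 CPM. Lmo2, a partner of blood and endothelial transcription factors, stood the other way, at 637 ± 53.8 CPM (SD, n = 5) in aEC, 563 CPM in vEC_1 and 338 CPM in preHE. Of 22 listed genes, 9 were lower in aEC than in preHE in all 5 WT libraries and 3 were higher. Against vEC 8 were lower and 6 higher in all 5. The summed level of the list in aEC was 1.23 to 1.4 times that in vEC of the same library in WT, and 1.3 to 1.35 times in Meis1_cKO. Genes of high level such as Lmo2 weigh most in this sum, so it does not describe the typical gene of the list.

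Markers of other cell types were scarce in aEC. The 10 myeloid markers summed to 6.4 to 19.8 CPM in WT and 15.8 to 47.4 CPM in Meis1_cKO, and Lyz2, which defines these cells, was at 0.754 CPM in WT aEC and 361 CPM in Myeloid cells. The 9 erythroid markers summed to 28.3 to 158 CPM in WT and 74.1 to 209 CPM in Meis1_cKO, mostly globin RNA. The 7 neural markers summed to 151 to 282 CPM in WT, of which Nes, which endothelium also expresses, gave 167 CPM, while Sox2 and Tubb3 were at 0.335 and 0.55 CPM. The 8 epithelial markers summed to 0.587 to 1.78 CPM.

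Within WT aEC, thinned cells with arterial UMIs held venous UMIs less often. Of cells with a UMI of Dll4, Gja4 or Hey1, 30.01% ± 3.46 (SD, n = 5) also had one of Nr2f2 or Nrp2, against 50.1% ± 6.95 (SD, n = 5) of the other aEC cells, and the share was lower in all 5 libraries. A UMI of the tip cell genes Esm1, Kcne3 or Apln was seen in 73.6% ± 16 (SD, n = 5) of cells with a Sox9 UMI. In the rest it was seen in 30.003% ± 8.12 (SD, n = 5). These are means of library shares, in which each library counts equally. Sox9 was seen in 27% of aEC cells of WT 4 and in 3.92% to 9.35% of those of the other WT libraries. Most of the 130 cells with a Sox9 UMI were thus from WT 4, which also had the highest Kcne3 level. Htra3 was seen in 33.3% ± 3.4 (SD, n = 5) of cells with a Cdkn1a UMI and 12.7% ± 5.51 (SD, n = 5) of those without. A UMI of Foxq1, Slc2a1 or Lef1 was seen in 95.4% ± 3.32 (SD, n = 5) of cells with an arterial UMI and 95.8% ± 1.65 (SD, n = 5) of those without. Slc2a1 alone was seen in 89% of WT aEC cells, so these shares were near their ceiling and could hardly differ. The gene sets were chosen after values were seen, and these shares carry no test.

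Over the 10 cluster means of WT, the gene whose level was most like that of Dll4 was Sept4, a septin, with a Pearson correlation of 0.99 among 7850 genes compared. It was followed by Prnp, the prion protein, at 0.98, Plcl1, a phospholipase C-like protein, at 0.97, Sema3g, a semaphorin of arteries, at 0.97 and 0610007P14Rik at 0.97. Clusters share their libraries, so these values are a description. Each of the 5 genes, like Dll4, had its highest mean in preHE and its next in aEC; Sema3g, for example, stood at 23.3 CPM in aEC, 111 CPM in preHE and 8.44 CPM in vEC_1.

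The clusters were drawn without the antibody tags, which could therefore be tested. The mean tag count per cell in aEC was set over that of vEC, preHE, EHT or Myeloid cells of the same library, and tested by exact permutation of signs, two-sided, over the 7 libraries with tags (4 for CD44), with Benjamini-Hochberg adjustment over 24 pairs of tag and cluster. In 13 of 24 pairs the adjusted p was below 0.05, each with the smallest p the design allows. With median counts per cell, and with any 1 library left out, the 13 kept their direction but none passed (smallest adjusted p 0.0536, exact permutation). Leaving out 1 library raises the smallest possible p, and all 13 then kept an unadjusted exact permutation p below 0.05. With a centred log ratio, which sets each tag against the mean of the tags of its cell, 3 of the 13 passed in the same direction, 3 passed in the opposite direction, and 6 in all changed sign. The 3 that passed in the same direction were CD43 against EHT and Myeloid cells and CD45 against vEC. CD43, sialophorin of blood cells, had mean counts of 36.3, 37.9, 14.3 and 4.82 per aEC cell in WT 1, 2, 3 and 5 and 5.51, 3.63 and 1.57 in Meis1_cKO. In EHT cells the means were 511, 533, 353 and 159.6 and 133, 98.4 and 64.1. The clusters overlapped across libraries in neither genotype, and the log2 ratio was -4.57 ± 0.58 (SD, n = 7; exact permutation p = 0.0156, adjusted p = 0.0288, lower in 7 of 7 libraries). Its RNA, Spn, had 0 UMIs in WT aEC and stood at 23.7 CPM in EHT.

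Also lower than in EHT were CD41, an integrin that appears early in blood formation, at -3.42 ± 0.44 on the log2 scale, CD117, the Kit receptor, at -2.45 ± 0.51, and CD27, a co-stimulatory receptor, at -1.16 ± 0.32 (SD, n = 7; exact permutation, adjusted p = 0.0288 for each, 7 of 7 libraries). CD45, the common leukocyte antigen, did not pass against EHT, at -0.34 ± 0.42 (SD, n = 7; exact permutation, adjusted p = 0.125, lower in 5 of 7 libraries), and was lower than in Myeloid cells by -3.87 ± 0.90 (exact permutation, adjusted p = 0.0288, 7 of 7). With the centred log ratio CD27 against EHT turned to 1.49, CD41 and CD117 against EHT did not pass, at -0.32 and -0.01, and CD45 turned to 1.98 against EHT and did not pass against Myeloid cells, at -0.99. Against preHE, CD43 was lower in aEC, with a log2 ratio of -0.89 ± 0.38 (SD, n = 7; exact permutation, adjusted p = 0.0288, 7 of 7 libraries), and at -0.33 with the centred log ratio it did not pass. CD41 and CD27 gave ratios of 0.10 ± 0.53 and 0.03 ± 0.30 to preHE (exact permutation, adjusted p = 0.701 and 0.844), and CD117 one of 0.39 ± 0.28 (adjusted p = 0.05, higher in 6 of 7, exact permutation), which did not pass.

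Against vEC, CD43, CD45 and CD27 were lower in aEC by small ratios of -0.21 ± 0.09, -0.49 ± 0.20 and -0.26 ± 0.16 on the log2 scale (SD, n = 7; exact permutation, adjusted p = 0.0288 for each, 7 of 7 libraries). The aEC cells also held fewer RNA UMIs than vEC cells, and the part of that in these tag ratios was not tested. With a centred log ratio in place of mean counts, CD43 and CD27 turned to 0.02 and 0.03. For CD44, 4 libraries allow no exact permutation p below 0.125. Its mean counts were 5.37 in aEC of WT 5 and 4.57, 5.02 and 1.98 in Meis1_cKO, against 39.6 and 53.4, 48 and 23.5 in preHE, so the clusters did not overlap.

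**Figure D5:**
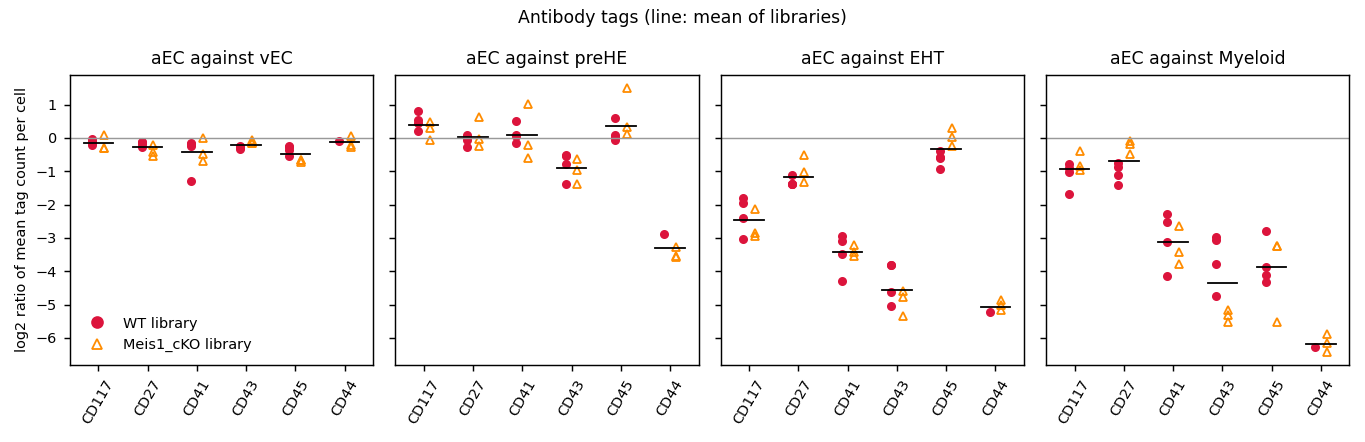
Log2 ratio of the mean tag count per cell in aEC over that in vEC, preHE, EHT or Myeloid cells of the same library, with red circles for WT and orange triangles for Meis1_cKO libraries and a line for the mean. CD43 and CD44 lay below 0 in every library against preHE, EHT and Myeloid cells, and the means of the ratios to vEC lay between -0.49 and -0.12.

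The genotypes were compared within aEC on counts summed per library. With edgeR's quasi-likelihood test, 0 of 9540 genes (0.0%) had an adjusted p below 0.1, while 1000 had an unadjusted p below 0.05 and DESeq2 called 11. None of the 19 genes highest in aEC passed; Htra3 had a log2 fold change (Meis1_cKO over WT) of -0.12 (SE 0.15, edgeR adjusted p = 0.796) and Foxq1 one of -0.07 (SE 0.12, edgeR adjusted p = 0.875). Among the markers, Dll4 was at 33.3, 23.7 and 37.9 CPM in Meis1_cKO aEC, within the range of the WT libraries apart from the second value, with a log2 fold change of -0.55 (SE 0.22, edgeR adjusted p = 0.421). Sox9 was at 15.6, 20.2 and 42.6 CPM, with -0.66 (SE 0.46, edgeR adjusted p = 0.633).

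The smallest p-values were those of Pigt, Arl6ip5, Hist1h4d, Gm10263 and AY036118, none of which passed (edgeR adjusted p = 0.195 for each). Arl6ip5, a membrane protein of the endoplasmic reticulum, stood at 150.3, 146, 108, 135 and 13.9 CPM in WT 1 to WT 5 and 14.3, 13.8 and 18.1 CPM in Meis1_cKO, so that WT 5 lay with the Meis1_cKO libraries. AY036118, a locus of ribosomal RNA sequence with near-identical copies whose count is uncertain, was at 962, 806, 883, 835 and 183 CPM in WT and 274, 171 and 194 CPM in Meis1_cKO, with the same split. Pigt, which helps to attach proteins to membrane anchors, was at 12, 17.9, 10.1, 13.5 and 26.1 CPM in WT and 40.8, 47.4 and 32.1 CPM in Meis1_cKO, where WT 5 lay between. Without WT 5, 408 genes passed, 218 of them higher and 190 lower in Meis1_cKO, and with WT 5 as the only WT library 0 of 9586 passed (233 at an unadjusted p below 0.05). WT 1 to WT 4 were also the deeper libraries, and WT 5 is the library whose cell names begin with Mf, so without WT 5 depth, strain and genotype cannot be told apart.

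The difference between aEC and vEC was compared between the genotypes with the library as a block. Of 12174 genes, 0 (0.0%) had an edgeR adjusted p below 0.1, 604 had an unadjusted p below 0.05, and DESeq2 called 0. The smallest p was that of Mns1, a gene of cilia, at 14.8, 16.7, 8.23, 10.7 and 22.9 CPM in WT aEC and 24.5, 28.4 and 26.8 CPM in Meis1_cKO aEC, with a log2 difference of 1.03 (SE 0.20, edgeR adjusted p = 0.203). WT 5 was the highest of the WT libraries. Without WT 5, 28 genes passed.

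The share of aEC among endothelial cells (aEC, preHE and vEC) was 13.6, 15.1, 9.41, 14.3 and 13.6% in WT 1 to WT 5 and 9.54, 19.8 and 10.6% in the Meis1_cKO libraries. The groups overlapped, and their means of 13.2% ± 2.21 (SD, n = 5) and 13.3% ± 5.63 (SD, n = 3) differed by 0.103 percentage points (exact permutation p = 0.982, two-sided, smallest possible p 0.0179). The difference rested on single libraries, since it was -3.13 points without Meis1_cKO 2 and -0.85 without WT 3, and it was -0.92 points as a share of all cells. Exact Clopper-Pearson 95% intervals, which cover counting error only, were 8.18% to 11.04% for the first and 17.8% to 21.9% for the second Meis1_cKO library, so libraries of the same genotype differed by more than counting error.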

How the data were processed

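RNA and 6 antibody tags were counted in single CD31-positive cells of 8 libraries, 5 WT and 3 Meis1_cKO. The authors deposited UMI counts per gene and cell, from Cell Ranger 3.0.2 on mm10 by the submitters' processing notes, with an annotation of each cell; per the labels and methods, they had kept cells by number of genes and mitochondrial share, and in the table the fewest genes in a cell were 2001 and the highest mitochondrial share was 9.98%. Cells were taken from the annotation, which was drawn from 50 components of the same RNA. WT 4 had no tags, and CD44 was counted only in WT 5 and Meis1_cKO. Doublets were called with Scrublet (scanpy 1.11.5), which marked 83 cells, and were kept.

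Counts were summed per library and cluster of at least 10 cells and scaled to CPM, with log2 differences on CPM + 1. The Megakaryocytes of WT 3, with 5 cells, were below this minimum and had no sum. Gene lists, markers and the rule for named genes (the 19 genes at least 2-fold above every cluster, the 10 largest differences from vEC each way, the listed genes and the 5 smallest p-values of each test) were chosen with earlier results of these data known; the barrier, p53, stress and cyclin lists and the co-detection sets were added after values were seen. Genotype was tested with edgeR 4.0.16 (quasi-likelihood, TMM, low counts filtered; R 4.3.3, limma 3.58.1) at a Benjamini-Hochberg adjusted p of 0.1, with DESeq2 1.42.0 as an alternative. Tags and shares had exact permutation tests (scipy 1.17.1), tags at an adjusted p of 0.05. On simulated counts 200 genes, drawn from those above 20 CPM, were changed by 1.5 on the log2 scale. The genotype test found 99.5% of them among 9410 genes with 12.3% false calls, and the interaction test 100% among 11966 with 9.91%. Smaller changes, changes in lower genes and a split of WT 5 from WT 1 to WT 4 were not simulated. These shares therefore do not show what the tests could find in such cases. For libraries numbered 1 to 3 in both genotypes, deviations correlated at 0.00, 0.20 and 0.14 with the same number and at -0.17 to 0.04 with another. WT 2 and WT 3 thus correlated best with their own number and WT 1 did not. The libraries share only that number in the labels, so it was not used as a block in the main fit. Alternatives covered normalization, filters, thinning, depth, doublets and each library left out. Depth limits low genes: 3 counts are the floor of detection.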

Additional observations from a re-analysis of the deposited data

Results flagged for a closer look

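Within the WT libraries, 45 groups of values were checked for a library that stands far from the rest (Dixon's test at its 95% critical value), which chance alone meets in about 1 of 20 groups, and 5 were found. Kcne3 in aEC was highest in WT 4, at 146 CPM against a median of 71.4 CPM. Rgcc, a cell cycle regulator, was lowest in WT 5, at 33.7 CPM against 51.1 CPM. The share of aEC among endothelial cells was lowest in WT 3, the library with the fewest cells, at 9.41% against 13.6%. The CD41 tag ratio of aEC to vEC was lowest in WT 5, at -1.29 against -0.22 on the log2 scale. The CD27 tag ratio of aEC to EHT was highest in WT 2, at -1.11 against -1.38.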

How the results depend on the processing

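The count of genotype genes in aEC (0) was 11 with DESeq2, 219 without the filter on low counts, 3 in thinned cells and 0 to 408 with 1 library left out (1 without WT 4, 408 without WT 5, otherwise 0). It was 0 with depth as a covariate (238 genes at an unadjusted p below 0.05) or WT 5 as the only WT library. With the replicate block on libraries 1 to 3 it was 744, and 295 in those libraries unblocked, a fit added after seeing the data. WT 1 did not correlate best with its own number, while WT 2 and WT 3 did. Arl6ip5 turned to 0.19 with the depth covariate and 0.12 against WT 5 alone, AY036118 to 0.32 and 0.19, and Gm10263 to 0.58 with the depth covariate. The count for aEC against vEC by genotype (0) was 19 without the filter, 2 in thinned cells, 18 in libraries 1 to 3 unblocked, 0 with the replicate block, 2 with WT 5 as the only WT library, 5 with preHE as the partner and 0 to 28 with 1 library left out (1 without WT 4, 28 without WT 5). The 19 genes highest in aEC became 38 at 1.5-fold, 7 at 3-fold and 11 at a minimum of 50 CPM, and 18 to 23 with 1 WT library left out. With the centred log ratio 10 tag pairs passed, but of the 13 pairs only 3 did so in the same direction, 3 passed in the opposite one and 6 changed sign. The other 4 were not among the 13. The count was 0 with median counts (10 of the 13 at an unadjusted p below 0.05), 0 in WT alone and 0 with any 1 library left out, and the 13 kept their direction in these. With the 4 tagged WT libraries no exact permutation p can be below 0.125, so no pair could pass there. Leaving out 1 library also raises the smallest possible p, and all 13 then had an unadjusted p below 0.05. The centred log ratio turned CD117 to 0.0627 (vEC) and 1.88 (Myeloid), CD41 to 0.27 (Myeloid), CD43 to 0.0241 (vEC), CD45 to 1.98 (EHT), and CD27 to 0.0323 (vEC), 1.49 (EHT) and 1.91 (Myeloid). The difference in aEC share turned to -0.92 as a share of all cells, -0.0314 as log odds and -0.29 against WT 5 alone, and ran from -3.13 (without Meis1_cKO 2) to 1.99 with 1 library left out (-0.85 without WT 3). Markers per cell (1.55) became 2.54 unthinned, 1.13 at 3000 UMIs and 0.79 at 2 UMIs or more. Apart from the alternatives' own construction, the cause of these changes was not tested.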
